A study of Drosophila melanogaster with 62 samples.

Results

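Trans contacts of 2 viewpoints next to *dac* were followed at the embryo peaks of GAGA factor (GAF) that lie on other chromosomes than the viewpoints. The members are the 1-kb bins that hold the centre of an embryo GAF peak on 3L, 3R or X, with the peaks and their quartiles taken from the peak table of the study, where quartile 4 is the strongest. The rule gave 1188 peaks in 1188 bins, out of 1855 embryo peaks in the table and out of 83734 bins of these 3 arms, and 81253 bins that no peak overlaps served as background. Of these peaks 381 lie on 3L, 442 on 3R and 365 on X, and the quartiles hold 299, 305, 299 and 285 peaks from the weakest to the strongest.

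The counts come from 24 4C-seq libraries of *Drosophila melanogaster*, each read from both viewpoints. 4C-seq is a ligation assay that counts the reads of fragments joined to 1 chosen fragment, the viewpoint. The libraries form 8 groups of 3: embryos that are wild type (WT), carry the insertion gypsy1 or carry the insertion gypsy2, larval leg discs of WT and gypsy2, pupal leg discs of WT and gypsy2, and embryo replicates 4 to 6, whose title says WT although a gypsy insertion stands in their genotype field. The last are called titled WT here and were never pooled with WT. The gypsy insulator is a sequence from the retrotransposon of that name, and both insertions are at *dac*, a gene of leg and eye development on 2L. The first viewpoint is PRE2, a Polycomb response element next to *dac*, and the second, also at *dac*, is named after the gypsy2 insertion and was read in libraries of every genotype. The labels give neither the age of the embryos nor more of the genotype than the insertion. Whether the 3 libraries of a group came from separate cultures of flies is not stated, so p-values measure only the spread between these libraries, which all read the same bins.

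GAF, encoded by *Trl*, is a DNA-binding protein that recognises GAGAG and its repeats, and it is bound at many promoters, at heat shock genes and at Polycomb response elements. These elements recruit Polycomb complexes, which keep developmental genes such as the homeotic genes silent, and distant elements can meet in the nucleus, in some cases between chromosomes. The comparison therefore asks whether bins with a GAF peak received more trans reads from a Polycomb response element than other bins of their chromosome, and whether the insertions, the stage or the strength of the peak altered this.

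The peaks were first placed on the genome. Of the 1188 peak centres 645 were in introns, 253 in exons and 290 between genes, and 549 (46.2%) were within 1 kb of an annotated transcription start. A start lay in 47.6% of peak bins against 10.1% of no-peak bins. GAGAG, counted on both strands with overlaps, occurred in 97.3% of peak bins, 68.1% of no-peak bins and 68.8% of all bins, with 7.32 copies per peak bin against 1.47. Its mean number was 5.85, 6.74, 7.59 and 9.22 per bin from quartile 1 to quartile 4. Transposons were annotated in 1.60% of peak bins and 7.77% of no-peak bins, and 0.42% of peak bins but 13.1% of no-peak bins were pericentromeric.

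The 201 bases around 4 summits show the range of these sites on the plus strand of dm6, in lower case with GAGAG or its reverse complement CTCTC, GATC and CATG in capitals. The last 2 words are included because the chance of a bin to hold a read went with them. They are the peak next to *knrl*, among the 10 highest bins from PRE2, a peak in an intron of *Ubx*, a peak in *Pdk1* whose bin was at 0 in every library, and the summit next to the peak bin with the highest level, in an intron of *nAChRalpha3*.
knrl, chr3L:20621721-20621921: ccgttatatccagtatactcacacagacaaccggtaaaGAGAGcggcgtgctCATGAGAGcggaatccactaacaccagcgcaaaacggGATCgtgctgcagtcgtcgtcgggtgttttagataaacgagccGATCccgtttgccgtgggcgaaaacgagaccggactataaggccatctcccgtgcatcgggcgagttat
Ubx, chr3R:16702953-16703153: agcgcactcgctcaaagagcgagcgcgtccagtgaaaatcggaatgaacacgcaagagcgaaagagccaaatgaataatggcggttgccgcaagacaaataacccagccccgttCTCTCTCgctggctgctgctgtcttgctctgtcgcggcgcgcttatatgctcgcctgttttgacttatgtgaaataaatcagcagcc
Pdk1, chr3L:131507-131707: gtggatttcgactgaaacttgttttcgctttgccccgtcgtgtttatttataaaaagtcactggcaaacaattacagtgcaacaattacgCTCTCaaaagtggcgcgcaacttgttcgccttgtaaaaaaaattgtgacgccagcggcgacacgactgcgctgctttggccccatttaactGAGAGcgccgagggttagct
nAChRalpha3, chrX:8295666-8295866: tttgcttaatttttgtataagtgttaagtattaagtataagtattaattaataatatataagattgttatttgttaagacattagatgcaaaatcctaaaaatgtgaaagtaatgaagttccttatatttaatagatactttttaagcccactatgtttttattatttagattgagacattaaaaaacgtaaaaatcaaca
The *knrl* stretch holds GAGAG, GATC and CATG together, the *Ubx* and *Pdk1* stretches hold copies of the GAF word and neither of the other words, and the *nAChRalpha3* stretch holds none of the 3. No sequence feature was read from a library: these are reference bases.

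The depth differed greatly between the groups. Embryo WT and gypsy1 libraries held 800269 to 1466765 counts, the embryo gypsy2 and titled WT libraries 14352639 to 25904672, larval libraries 2274115 to 6456560 and pupal libraries 9531010 to 18297507. Between 4.34% and 16.4% of the counts were in trans, that is on 3L, 3R, X, 4 or Y. A bin on 3L, 3R or X held a count in 26.7% to 55.1% of cases in embryo libraries, in 5.64% to 24.02% in larval and in 12.5% to 16.7% in pupal ones, and a limit of 3 counts for a bin at 0 corresponds to between 1.54 and 34.9 CPM of trans, the unit used from here on, which is CPM with the trans counts of a library as its total. PCR copies could not be told from separate molecules, so this limit covers counting error only.

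Peak bins received about the same number of trans reads as other bins of their chromosome. From PRE2 the mean level of a peak bin was 12.3 ± 0.5 CPM of trans in embryo WT (SD, n = 3), 12.4 ± 0.4 in embryo gypsy1, 10.8 ± 1.0 in embryo gypsy2 and 11.1 ± 1.0 in titled WT. It was 12.6 ± 1.4 in larval WT, 12.2 ± 2.9 in larval gypsy2, 11.4 ± 1.9 in pupal WT and 12.6 ± 0.7 in pupal gypsy2. The mean over all no-peak bins was between 11.5 and 11.7 in all 8 groups. From the gypsy2 viewpoint the level was 10.9 ± 0.7 in embryo WT, 11.3 ± 0.5 in gypsy1, 9.50 ± 1.02 in gypsy2 and 9.86 ± 0.24 in titled WT, and in the discs it was 12.7 ± 2.2 in larval WT, 12.7 ± 1.5 in larval gypsy2, 11.2 ± 1.3 in pupal WT and 12.1 ± 0.9 in pupal gypsy2. Embryo gypsy2, titled WT and pupal WT were below the mean of all no-peak bins from both viewpoints, embryo WT and gypsy1 were below it from the gypsy2 viewpoint only, and the larval groups and pupal gypsy2 were above it from both.

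The sign of the difference depended on which no-peak bins were counted. The background of the rule leaves out no-peak bins with no count in any library of the same table, while peak bins without a count stay in, and it kept 85.6% of no-peak bins in the embryo table from PRE2 but 55.5% in the larval and 55.3% in the pupal one. Against it, peak bins were lower in 24 of 24 libraries from both viewpoints, with a mean log2 ratio of -0.51 ± 0.34 from PRE2 (range -1.21 to -0.06) and -0.61 ± 0.28 from the gypsy2 viewpoint (range -1.15 to -0.19). The two-sided sign-flip permutation test over libraries gave p = 1e-05 for both, the smallest that 100000 resamples can give. It was 2.9e-05 after Benjamini-Hochberg adjustment over the 29 single-value tests of this setting. These p-values cannot decide whether peak bins were lower, because dropping empty bins from the background alone lowers the ratio by construction. The log2 of the share of no-peak bins kept ran from -0.92 (pupal table, gypsy2 viewpoint) to -0.21 (embryo table, same viewpoint). With the filter on neither side the ratio was 0.03 ± 0.18 from PRE2, above 0 in 16 of 24 libraries (permutation p = 0.369), and -0.06 ± 0.20 from the gypsy2 viewpoint, above 0 in 8 of 24 (p = 0.169). Between the ratios with and without the filter only the mean of the background changes.

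**Figure D1:**
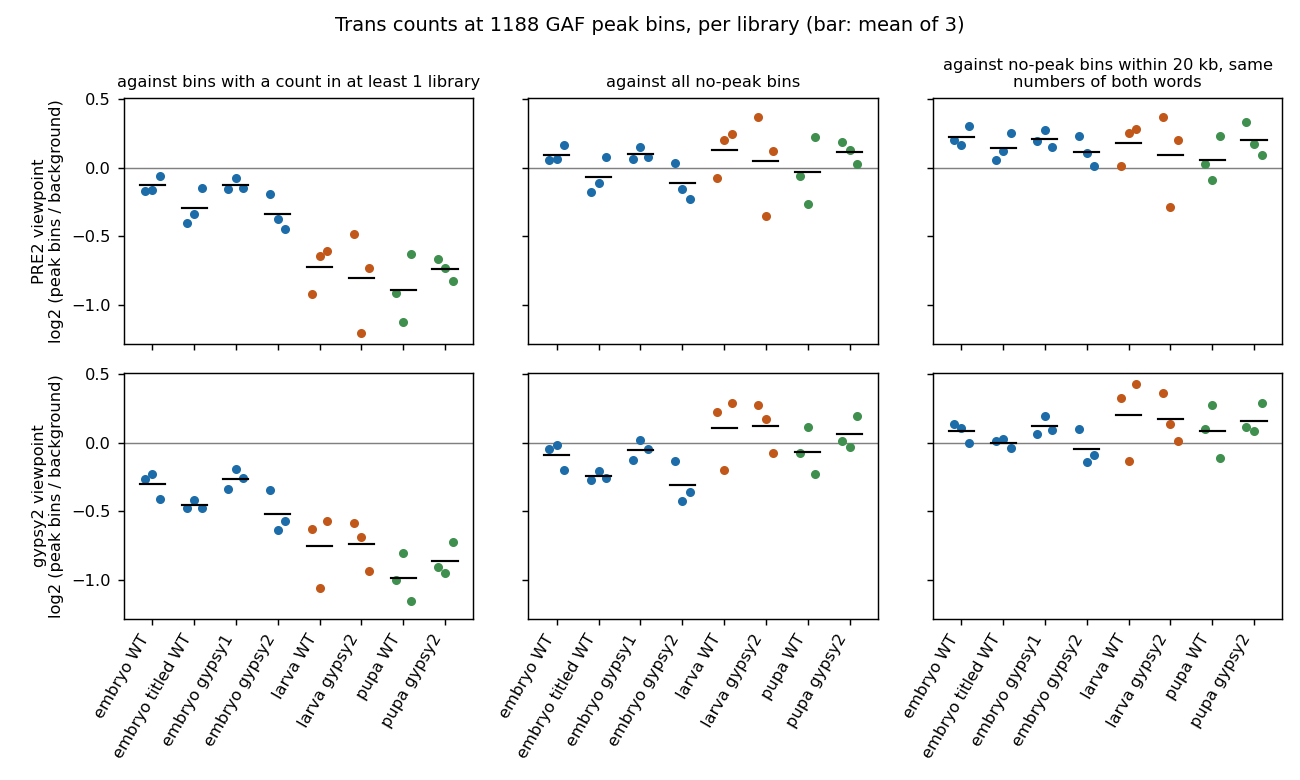
Log2 ratio of the mean count of the 1188 peak bins over that of the background, for each of 24 libraries (points, with the mean of the 3 libraries of a group as a bar), from PRE2 (top) and from the gypsy2 viewpoint (bottom). All points lie below 0 against the bins with a count in at least 1 library (left), they lie on both sides of 0 against all no-peak bins (middle), and 22 of 24 from PRE2 lie above 0 against bins within 20 kb that hold the same numbers of both words, GATC and CATG (right).

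A narrower background was then taken around each peak, and this alternative and the next were chosen after the data had been seen. Against the no-peak bins 3 to 20 kb away on either side, without a count filter, peak bins were lower in 23 of 24 libraries from PRE2 (-0.23 ± 0.15) and in 21 of 24 from the gypsy2 viewpoint (-0.28 ± 0.19), both with a sign-flip permutation p of 1e-05. The mean profile around the peaks shows the same dip. From PRE2 the mean log2 ratio was 0.03 in the bin of the peak centre, 0.15 and 0.17 in the bins on either side, 0.28 and 0.35 at 2 kb, and 0.25 and 0.30 at 20 kb. It was -0.06 from the gypsy2 viewpoint at the centre, 0.00 and 0.08 beside it, and 0.18 and 0.29 at 2 kb. The surroundings of GAF peaks thus lay above the mean of all no-peak bins of the chromosome, and the peak bins lay below their surroundings. That mean includes pericentromeric bins, 13.1% of no-peak bins but 0.42% of peak bins. It also includes bins at 0 in all 48 columns, 10.3% of no-peak bins and 4.21% of peak bins. How far these set the height of the surroundings was not tested.

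**Figure D2:**
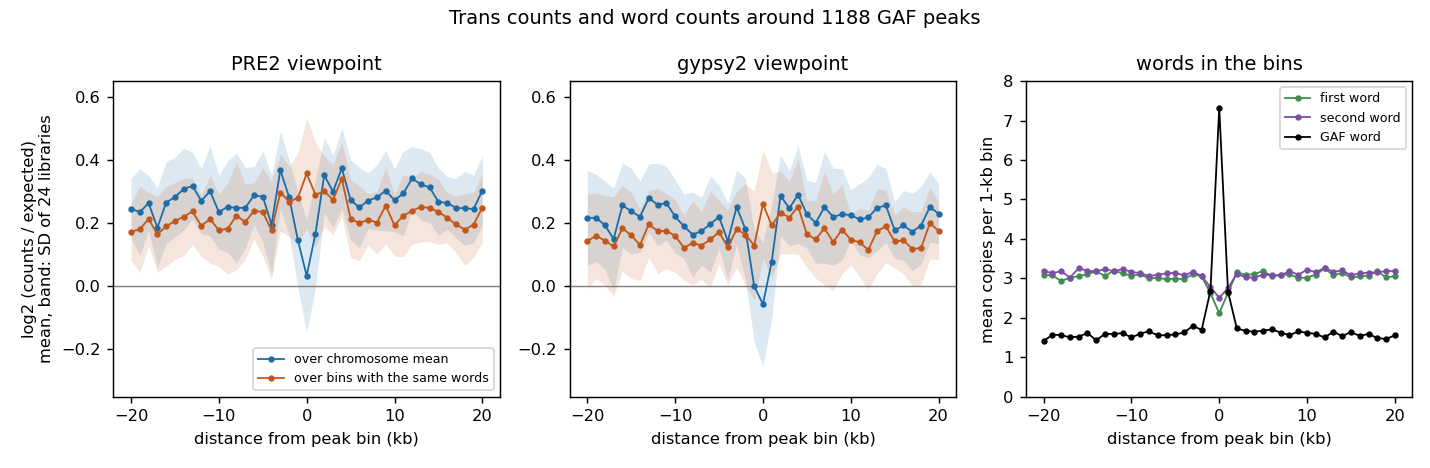
Mean log2 ratio of the counts over those expected from no-peak bins of the chromosome (blue) or from such bins with the same words (orange) against the distance from the peak bin in kb, as the mean of 24 libraries with the SD as a band, and at the right the mean number of the words GATC (first), CATG (second) and GAGAG or CTCTC (GAF word) per bin. The blue line dips to 0.03 and -0.06 in the peak bin, where the first and second word are fewest, and the orange line stands at 0.36 and 0.26 there.

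The counts went with 2 short words of the reference. Among euchromatic no-peak bins, 9.999% of those without CATG held a count in a library against 30.1% of those with it from PRE2, a ratio of 3.01, and 14.4% of those without GATC against 31.2% of those with it, a ratio of 2.16. The ratios were 2.81 and 2.28 from the gypsy2 viewpoint. The other 8 palindromic words of 4 bases that were counted gave ratios of 0.80 to 1.39. No source used here names the enzymes of the assay, and which words they cut was not tested in another way. Peak bins held fewer of both words, with 2.12 GATC against 2.81 in no-peak bins and 2.51 CATG against 3.10, and 72.8% of peak bins against 81.4% of no-peak bins held both. The words ran against the strength of the peak only in part: quartile 4 had the fewest GATC (1.92) and CATG (2.42), and quartile 3 the most GATC (2.30).

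Among bins that hold both words, peak bins had more reads than no-peak bins as the mean of 24 libraries from each viewpoint. Pericentromeric bins were kept among the no-peak bins here. By stage, peak bins were higher in larvae and pupae from both viewpoints and in embryos from PRE2. In embryos from the gypsy2 viewpoint they were not, with 13.23 ± 1.46 CPM of trans (SD, n = 12 libraries) against 13.51 ± 0.29. Bins with at least 2 copies of each word had 18.6 ± 3.0 CPM of trans (SD, n = 24 libraries) with a peak and 15.7 ± 0.7 without from PRE2, and 17.6 ± 2.7 and 15.9 ± 0.6 from the second viewpoint. Peak bins with only GATC had 3.12 ± 1.31 against 2.88 ± 0.86 from PRE2, and those with only CATG 4.31 ± 1.77 against 4.97 ± 2.24. The 31 peak bins with neither word were at 0 in every library, and of the no-peak bins with neither word 0.06% had a count from PRE2 and 0.10% from the gypsy2 viewpoint. The peak in *Pdk1*, a kinase gene of insulin signalling, is one of them, with 21 copies of GAGAG in its bin.

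**Figure D3:**
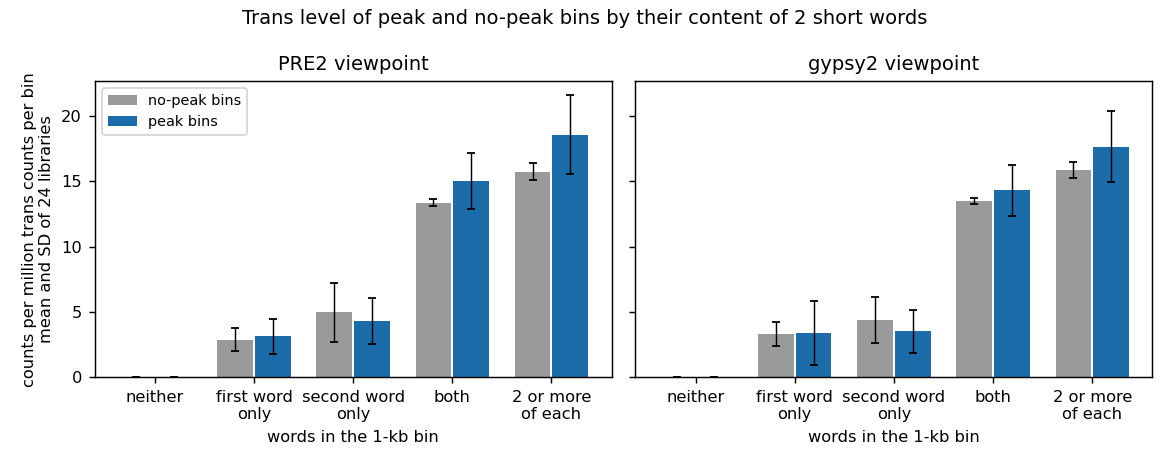
Mean level in CPM of trans per bin (bars, with the SD of 24 libraries) of no-peak bins (grey) and peak bins (blue) that hold neither word, only GATC (first word), only CATG (second word), both, or at least 2 of each. From PRE2 bins with at least 2 of each had 18.6 with a peak and 15.7 without, and bins with neither were at or near 0.

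When the background was taken within the same chromosome and the same numbers of GATC and CATG, without a count filter, the ratio was 0.36 ± 0.18 from PRE2 and 0.26 ± 0.17 from the gypsy2 viewpoint, above 0 in 23 of 24 libraries from each. Pericentromeric bins were part of that background. When the background was taken within 20 kb and within the same numbers of both words, the ratio was 0.15 ± 0.15 from PRE2, above 0 in 22 of 24 libraries (sign-flip permutation p = 0.00014, adjusted p = 0.00406 over 29 tests), and 0.10 ± 0.16 from the gypsy2 viewpoint, above 0 in 19 of 24 (p = 0.00458, adjusted p = 0.0332). The stages are given for the 1127 peaks outside the gene lists read below. From the gypsy2 viewpoint these stood at 0.04 ± 0.10 in embryo libraries, with 4 of 12 below 0, 0.21 ± 0.24 in larval and 0.10 ± 0.15 in pupal ones. From PRE2 they stood at 0.17 ± 0.09, 0.13 ± 0.24 and 0.12 ± 0.16. The share of peak bins with a count, which a single bin of many reads cannot move, gave 0.12 and 0.09 for all peaks in this setting (sign-flip permutation p = 1e-05 and 0.00093). The direction of the comparison therefore went from below to above the background with its definition.

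The difference between the strongest and the weakest GAF peaks depended on the viewpoint and the background. Against the background of the rule the mean log2 ratio was -0.48, -0.50, -0.56 and -0.54 from quartile 1 to 4 from PRE2, and -0.54, -0.63, -0.60 and -0.74 from the second viewpoint. Quartile 4 minus quartile 1 was -0.06 from PRE2 (sign-flip permutation p = 0.324) and -0.20 from the gypsy2 viewpoint (p = 0.0154, adjusted p = 0.0406), where the strongest peaks were the lowest. With counts capped at the 99th percentile of a library's bins with a count, it was -0.04 and -0.15 (unadjusted sign-flip permutation p = 0.481 and 0.0496). The 2 highest peak bins, described below, are both in quartile 1 and hold bases that match elsewhere. Without the count filter the difference of the quartiles was -0.06 (permutation p = 0.331) and -0.20 (p = 0.0159, adjusted p = 0.231). It was thus alike, and its adjusted p changed because the adjustment depends on the other tests of a setting. Against the background of the rule, all peaks and every quartile had a sign-flip permutation p of 1e-05. The filter on no-peak bins alone lowers all of these ratios by construction, so these p-values do not decide their sign. With the local background of the same words the difference was 0.04 (permutation p = 0.544) and -0.10 (p = 0.212). As a share of bins with a count against that last background it was 0.098 from PRE2 (unadjusted permutation p = 0.0425), with quartile 4 the higher, and -0.032 from the gypsy2 viewpoint. By counts, against the local background of the same words, the quartiles stood at 0.16, 0.14, 0.07 and 0.20 from PRE2 and at 0.15, 0.06, 0.07 and 0.06 from the gypsy2 viewpoint. Of these, quartiles 1 and 4 from PRE2 and quartile 1 from the gypsy2 viewpoint passed after adjustment (adjusted p = 0.0104, 0.00885 and 0.0406).

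**Figure D4:**
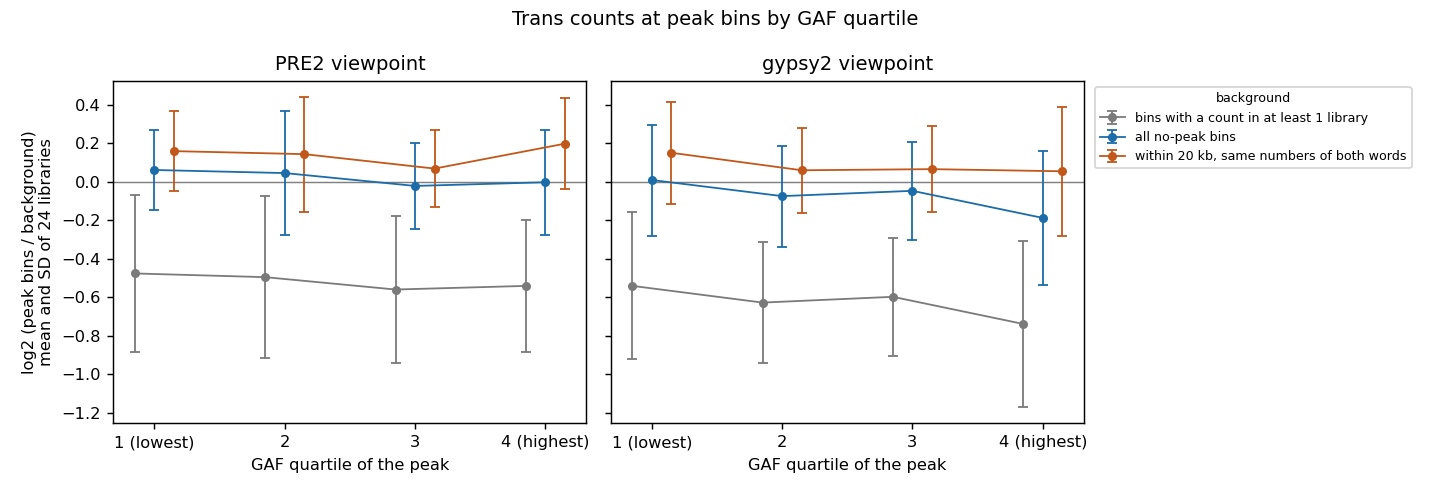
Mean log2 ratio of peak bins over 3 backgrounds (points, with the SD of 24 libraries as bars) by the GAF quartile of the peak, from weakest to strongest, for PRE2 (left) and the gypsy2 viewpoint (right). The lines are apart by background, and within a background the SD bars of the quartiles overlap. These bars show the spread between libraries and not that of the difference between quartiles within a library, which the text gives.

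The quartiles did not stand in the same order in all groups. In titled WT from the gypsy2 viewpoint the mean level was 11.3 ± 0.9 CPM of trans in quartile 1 and 8.60 ± 0.68 in quartile 4, and in titled WT from PRE2 it was 13.0 ± 2.0 and 9.90 ± 1.14. The means of quartile 1 include the 2 highest peak bins. In titled WT these stood at 476 and 138 from the gypsy2 viewpoint and at 316 and 110 from PRE2. In gypsy1 embryos the mean level was 11.6 ± 0.5 in quartile 1 and 12.8 ± 1.4 in quartile 4 from PRE2. In pupal WT it was 10.5 ± 0.4 and 12.8 ± 2.7 from PRE2. These differences between groups were not tested.

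Other splits of the peaks were read with and without the words. Without the count filter, peak bins that hold a transcription start (566) were lower than the other 622 by a log2 difference of -0.11 from PRE2 (permutation p = 0.00517, adjusted p = 0.0103 over 8 tests) and -0.20 from the gypsy2 viewpoint (p = 0.00143, adjusted p = 0.00381). The 336 peak bins with at least 10 copies of GAGAG were lower than the 271 with 0 to 3 copies by -0.30 (permutation p = 0.00122) and -0.37 (p = 0.00013). The 2 highest peak bins are among those with 0 to 3 copies. The bins with a start held fewer CATG (2.28 against 2.72) but slightly more GATC (2.18 against 2.05), and those with at least 10 GAGAG held fewer GATC (1.98 against 2.35) and CATG (2.35 against 2.80). With the local background of the same words the differences were 0.03 and -0.08 for starts (permutation p = 0.454 and 0.184) and -0.03 and -0.10 for GAGAG (p = 0.703 and 0.138). Peaks on X were lower than those on 3L by -0.14 from the gypsy2 viewpoint without the filter (permutation p = 0.00993, adjusted p = 0.0159) and by -0.0007 with the local background of the same words (p = 0.989), and they held fewer GATC (2.05 against 2.16) and more CATG (2.62 against 2.52). Without the filter X minus 3L was -0.08 from PRE2 (permutation p = 0.137). X minus 3R was 0.02 from PRE2 (permutation p = 0.811) and 0.04 from the gypsy2 viewpoint (p = 0.452).

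No difference between insertion and WT libraries at the peaks passed its test. The log2 ratio of gypsy2 minus that of WT, over the 3 stages, was -0.05 from PRE2 (exact permutation within stages, p = 0.639) and -0.02 from the gypsy2 viewpoint (p = 0.772). Within the stages it was -0.21, -0.08 and 0.15 in embryos, larvae and pupae from PRE2 (exact permutation p = 0.1, 0.8 and 0.5) and -0.21, 0.02 and 0.12 from the gypsy2 viewpoint (p = 0.2, 0.9 and 0.4). With 3 libraries against 3 the exact test cannot go below p = 0.1. The embryo libraries of gypsy2 are all deeper than those of WT, and genotype and depth cannot be told apart there. Against titled WT, of like depth, the difference was -0.04 from PRE2 (exact permutation p = 0.6) and -0.06 from the gypsy2 viewpoint (p = 0.5). The gypsy1 insertion minus WT gave 0.0022 and 0.04 (exact permutation p = 0.9 and 0.6). These comparisons share WT embryo libraries, or gypsy2 embryo libraries, with one another.

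No single peak bin passed the test of counts. Bins of 3L, 3R and X with a mean of at least 5 counts were compared with edgeR's quasi-likelihood test and Benjamini-Hochberg adjustment over all of them. From PRE2, 0 of 584 peak bins passed at an adjusted p under 0.05 for embryo gypsy2 against WT, where 0.012% of all bins tested were called. The count was 0 of 222 for larval (0% of all bins), 0 of 539 for pupal gypsy2 against WT (0%), 0 of 764 for embryo gypsy2 against titled WT (0.00184%) and 0 of 58 for gypsy1 against WT (0%). From the gypsy2 viewpoint it was 0 of 502 in embryos (0.0124% of all bins), 0 of 393 in larvae (0%), 0 of 499 in pupae (0%), 0 of 682 against titled WT (0%) and 0 of 107 for gypsy1 (0%). At an unadjusted p under 0.05 edgeR had 2, 3, 1, 23 and 1 of these peak bins from PRE2, or 0.342%, 1.35%, 0.186%, 3.01% and 1.72%, where all bins tested had 0.288%, 0.791%, 0.277%, 3.08% and 2.72%. The second viewpoint had 6, 1, 0, 10 and 9, or 1.2%, 0.254%, 0%, 1.47% and 8.41%, where all bins had 0.472%, 0.438%, 0.0875%, 2.73% and 3.13%. The share of peak bins was thus above that of all bins for gypsy1 (9 of 107) and for embryo gypsy2 against WT (6 of 502) from that viewpoint, and the difference of these shares was not tested. DESeq2 called 3 of 222 peak bins for larvae from PRE2, where it called 166 of all 14541 bins. From the gypsy2 viewpoint it called 2 of 502 peak bins and 65 of all 40272 for embryo gypsy2 against WT. There it called 0 of 393 and 141 of all 26929 for larvae, and 4 of 499 and 331 of all 35429 for pupae. For embryo gypsy2 against WT from PRE2 it called 0 of 584 peak bins and 4 of all 41679, and in the other comparisons it called no bin. DESeq2 gave no adjusted p for part of the bins, as listed at the end.

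The stages could be compared only within the limits of the filter. WT larval minus embryo was -0.59 from PRE2 and -0.45 from the gypsy2 viewpoint with the background of the rule (exact permutation p = 0.1 for both, the smallest possible), and 0.03 (p = 0.8) and 0.20 (p = 0.3) without the count filter. The filter removed more bins in the tables of 6 libraries than in that of 12. WT pupal minus larval was -0.17 (exact permutation p = 0.5) and -0.23 (p = 0.3). The viewpoints differed by 0.10 (PRE2 minus gypsy2, sign-flip permutation p = 0.0425, adjusted p = 0.103), by 0.09 without the filter (p = 0.0765) and by 0.05 with the local background of the same words (p = 0.232).

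Most bins, with a peak or without, were seen in a minority of libraries. From PRE2 the median peak bin held a count in 4 of 12 embryo libraries and the median no-peak bin in 5. Of the peak bins 2 (0.168%) held one in all 12 and 111 (9.34%) in none, against 0.394% and 14.4% of no-peak bins. In larvae 491 (41.3%) and in pupae 470 (39.6%) peak bins were at 0 in all 6 libraries of PRE2, against 44.5% and 44.7% of no-peak bins. Of the 1188 peak bins 50 (4.21%) were at 0 in all 48 columns, and 46 of these lack GATC or CATG. Among no-peak bins 8356 (10.3%) were at 0 throughout, and 2858 of these lack GATC or CATG. Levels of the same bin from the 2 viewpoints, which share libraries and words, had a Spearman correlation of 0.74 in embryos, 0.26 in larvae and 0.21 in pupae over the 1188 bins, given as a description. The median level of a peak bin was 9.09 CPM of trans against 9.001 for no-peak bins from PRE2, and 8.07 against 8.88 from the gypsy2 viewpoint.

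The highest peak bin was the same from both viewpoints, and it ranked 14 from PRE2 and 13 from the gypsy2 viewpoint among all 83734 bins. It lies at chrX:8294001-8295000 in an intron of *nAChRalpha3*, a subunit gene of a nicotinic acetylcholine receptor, in quartile 1, with no GAGAG, 1 GATC and 4 CATG. Its mean over the groups was 195.4 CPM of trans from PRE2, with a count in 22 of 24 libraries, and 230.9 from the gypsy2 viewpoint, with a count in 23. From PRE2 its libraries stood at 163, 128 and 96.1 in embryo WT, at 55.7, 24.2 and 38.5 in gypsy1, at 294, 256 and 397 in gypsy2 and at 255, 373 and 321 in titled WT. The group means from PRE2 were 129 in embryo WT, 39.5 in gypsy1, 316 in gypsy2 and 316 in titled WT. From the gypsy2 viewpoint the gypsy1 libraries stood at 93.1, 186 and 55.9 and those of embryo WT at 214, 133 and 151. From PRE2 the larval libraries were at 147, 190 and 104 in WT and 190, 160 and 146 in gypsy2. The pupal ones were at 0, 469 and 0 in WT and 301, 322 and 257 in gypsy2. edgeR did not call this bin in any comparison. This bin holds an annotated transposon. Of its bases 206 match 21 other places of the genome at 95% identity or more over at least 100 bases, and reads of such copies cannot be told apart. The next bin, which holds the summit printed above, was at 0 in every library.

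The second bin from both viewpoints, chr3L:20823001-20824000 in an intron of *Pka-R1*, a regulatory subunit gene of protein kinase A, also holds an annotated transposon, with 6 matches elsewhere. It stood at 69.7 and 84.6 CPM of trans. From PRE2 its libraries were at 34.9, 70.2 and 163 in embryo WT, 46.4, 121 and 154 in gypsy1, 77.5, 75.7 and 176 in titled WT and 8.53, 34.1 and 0 in gypsy2. In larvae they were at 38.1, 190 and 187 in WT and 77.2, 139 and 74.8 in gypsy2, and in pupae 1 of 3 WT and 0 of 3 gypsy2 libraries had a count. Embryo gypsy2 was the lowest of the embryo groups, and edgeR did not call this bin in any comparison.

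The other bins of the first 10 from PRE2 ranged from 45.8 to 64.5 CPM of trans and had no match elsewhere by the same measure. They lie in introns of *Raf* (64.5), a kinase gene of the MAP kinase pathway, *Dys* (61.4), the dystrophin gene, *Ggt-1* (58.5), *Tm1* (53.6), a tropomyosin gene, *Mkp3* (47.4), a phosphatase gene of the same pathway as *Raf*, and *Rm62* (45.8), an RNA helicase gene, and between genes next to *fng* (49.2), a modifier of Notch, and *knrl* (45.8). The level of *Rm62* came to 51.6% from 1 pupal library. From the gypsy2 viewpoint the other 8 were next to *Mes2* (68.1) and *cas* (49.6), and within *Sec63* (55.0), *ps* (54.0), *gpp* (53.5), *DCP2* (50.6), *lncRNA:CR42719* (50.2) and *trx* (49.8). *gpp* encodes a histone H3K79 methyltransferase, *trx* the Trithorax methyltransferase that opposes Polycomb silencing, and *cas* a zinc finger factor of neuroblasts. Between 15.1% and 51.6% of the level of these 16 bins came from the highest of 24 libraries. From PRE2 8 peak bins (0.673%), and from the gypsy2 viewpoint 10 (0.842%), lay above the 99th percentile of no-peak bins.

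The bin of *knrl*, a nuclear receptor gene next to its paralogue *kni*, belongs to both the highest bins and the list of Polycomb targets. From PRE2 its libraries stood at 23.3, 44.7 and 9.61 CPM of trans in embryo WT, 0, 84.8 and 7.71 in gypsy1, 1.14, 37.3 and 45.1 in gypsy2 and 18.2, 0 and 25.7 in titled WT. From the gypsy2 viewpoint they were at 30.6, 44.5 and 43.2 in WT, 73.5, 33.4 and 74.5 in gypsy1, 0, 68.9 and 0.89 in gypsy2 and 34.9, 52.5 and 90.5 in titled WT. All groups overlapped with WT from PRE2, and from the gypsy2 viewpoint the gypsy2 group held both the lowest libraries and one above all of WT.

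Peaks within 5 kb of genes of 4 lists were then read in embryos, where the peaks were called. The median over all bins was 9.03 CPM of trans from PRE2 and 8.94 from the gypsy2 viewpoint, and 590 and 519 of 1188 peak bins lay above it. Of the 12 peaks at 5 of 9 homeotic genes, 5 and 7 lay above it, with medians of 6.67 and 12.6. Of the 42 peaks at 33 of 45 other Polycomb targets, 20 and 17 did, with medians of 8.48 and 6.37. Of the 5 peaks at 8 of 13 heat shock genes 3 did from each viewpoint (15.7 and 10.9), and both peaks at *Act5C*, the only one of 3 housekeeping genes with a peak, did (23.5 and 18.1). The lists were chosen with earlier results of these data known and were given no test.

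**Figure D5:**
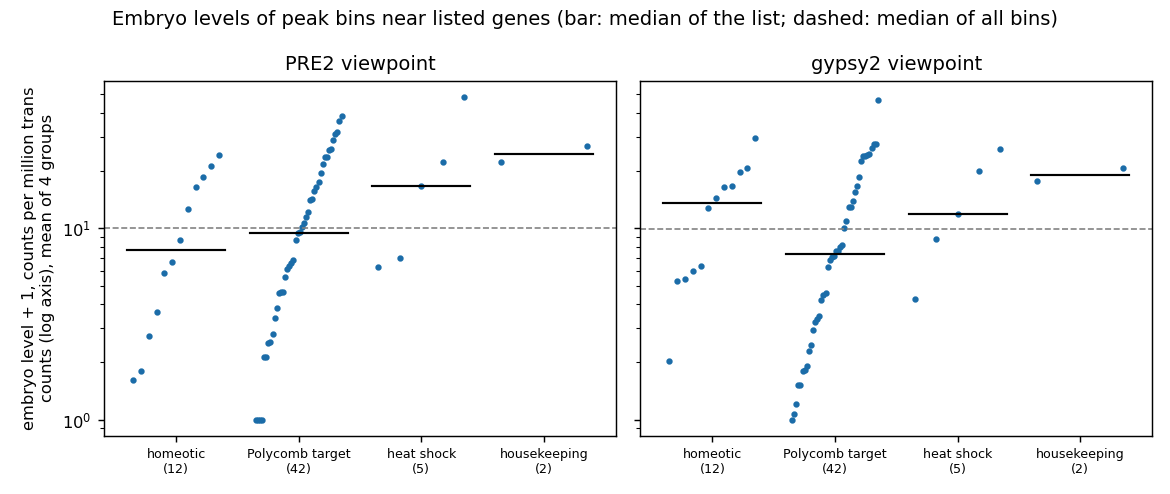
Level of each peak bin within 5 kb of a listed gene in embryos, as the mean of 4 group means in CPM of trans plus 1 on a log axis, for PRE2 (left) and the gypsy2 viewpoint (right), with the median of each list as a bar and the median of all bins as a dashed line. The 42 peaks at Polycomb targets spread from 0 to 37.6 from PRE2 and lie on both sides of the dashed line.

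The homeotic peaks lie in the Antennapedia and bithorax complexes, which hold the genes for segment identity. The peak at *Scr* stood at 23.0 CPM of trans from PRE2 and 15.4 from the gypsy2 viewpoint, as the mean of 12 embryo libraries. Its WT libraries were at 58.2, 12.8 and 57.6 from PRE2, and 1 of 3 libraries each of gypsy2 and titled WT had a count. The 5 peaks of *Antp* ranged from 0.61 to 20.0 from PRE2 and from 1.03 to 15.6 from the gypsy2 viewpoint. Those of *Ubx* were at 4.83, 15.4 and 0.80 from PRE2 and at 5.34, 28.7 and 5.01 from the gypsy2 viewpoint. The printed *Ubx* peak, in quartile 4, is the first of these, with a count in 2 of 12 libraries from PRE2. *abd-A* was at 11.6 and 5.66 from PRE2 and at 18.7 and 4.41 from the gypsy2 viewpoint, and *Abd-B* at 2.66, from a single library, and at 19.8, from 8. *lab*, *pb*, *Dfd* and *ftz* had no embryo peak within 5 kb.

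Among the other Polycomb targets the highest from PRE2 were *D*, a Sox factor, at 37.6 CPM of trans with a count in 11 of 12 embryo libraries, *srp*, a GATA factor, at 35.3, *kni* at 30.8 and *opa*, a pair-rule gene, at 30.0. From the gypsy2 viewpoint they stood at 14.5, 23.2, 23.5 and 21.5, and the highest there were *knrl* (45.6), one of the *hth* bins (26.6), *Dr* (26.5) and *Doc3* (25.3). The libraries of *D* from PRE2 were at 23.3, 6.38 and 19.2 in WT, 37.1, 0 and 30.8 in gypsy1, 13.6, 75.4 and 57.0 in gypsy2 and 41.2, 87.1 and 60.4 in titled WT. The group means of this bin from PRE2 were 16.3 in WT, 22.7 in gypsy1, 48.7 in gypsy2 and 62.9 in titled WT, and edgeR did not call it. From the gypsy2 viewpoint its titled WT libraries stood at 0, 55.02 and 40.6 and those of WT at 15.3, 4.94 and 21.6. At the other end *trh*, *mirr*, 1 of the *ct* bins and 1 of the *hth* bins were at 0 in all embryo libraries from PRE2, and that *hth* bin also from the gypsy2 viewpoint. *NetA*, a netrin gene, was at 14.6 and 23.0, and *NetB*, its neighbour, at 22.5 and 7.01. The order of these genes thus differed between the viewpoints.

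At the heat shock genes, the textbook sites of GAF, the peak within 5 kb of both *Hsp70Aa* and *Hsp70Ab* stood at 47.4 CPM of trans from PRE2 and at 24.8 from the gypsy2 viewpoint. Its libraries from PRE2 were at 0, 57.4 and 48.03 in WT, 27.8, 24.2 and 77.1 in gypsy1, 35.8, 143 and 111 in gypsy2 and 0, 22.8 and 22.5 in titled WT. The gypsy2 libraries were all above those of titled WT from PRE2, and all below them from the gypsy2 viewpoint (0, 0.73 and 6.23 against 80.2, 63.5 and 43.1). These genes are near-identical copies, but the bin lies outside both as annotated. Whether its own bases occur elsewhere was not tested. *Hsp83* was at 21.2 and 10.9, and the bin of *Hsp23* and *Hsp27* at 15.7 and 19.0. Of the 2 bins near both *Hsp22* and *Hsp26*, the one in *Hsp22* was at 5.24 and 3.25. The one that overlaps *Hsp26* was at 5.95 and 7.77. *Hsp68* and 4 further copies of *Hsp70* had no embryo peak within 5 kb.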

How the data were processed

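The authors deposited raw read counts of 4C-seq per 1-kb bin, 1 column per library, in 6 tables (3 stages and 2 viewpoints), without normalization. Per the submitters' processing notes Bowtie and dm6 were used, and the last bins of the tables end within 1 base of the chromosome ends of dm6. No source used here states the enzymes, read filters or handling of PCR duplicates. All 48 columns of the 24 libraries were used (0 were unused), and 30 of the largest values, 0 of them in trans, end in 0 and look rounded. Groups came from the sample labels. Embryo replicates 4 to 6 titled WT were kept apart, and the gypsy1 columns, numbered otherwise than their labels, were used as a group of 3. Hi-C and CUT&RUN samples of the series were not analysed here.

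Peak centres and quartiles came from the study's table of embryo GAF peaks, called from CUT&RUN. Bins that a peak overlaps without its centre were left out. The value of a library is the log2 of the summed count of peak bins over that expected from the mean of all no-peak bins of the same chromosome with a count in at least 1 library of the table. Peak bins were not filtered in this way. All such bins were taken in place of random ones. CPM of trans is relative to the counts on 3L, 3R, X, 4 and Y, and adding 2R, the other arm of the viewpoints' chromosome, was an alternative. Values were compared over libraries by two-sided sign-flip or exact permutation tests (100000 resamples over 24 libraries) with Benjamini-Hochberg adjustment within a setting, and single bins with a mean of at least 5 counts by edgeR's quasi-likelihood test with TMM factors, with DESeq2 as an alternative. The ratio was checked on simulated Poisson counts, the permutation tests on normal values and edgeR on counts drawn at an estimated and at a set dispersion. The spread of Poisson counts need not be that of these libraries. How many changed bins edgeR recovers is not given here. Named bins are the 10 with the largest share of trans counts per viewpoint (mean of 8 group means), up to 10 past the edgeR threshold (0 were) and those within 5 kb of a homeotic, Polycomb target, heat shock or housekeeping gene. Members and lists were chosen with earlier results of these data known. Genes, words and sequences came from the dm6 reference and its annotation, and copies were sought with blastn.

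Total counts ran from 800269 to 25904672 per library, and most bins held few or no counts, so that the spread between libraries limits the precision. Python 3.11.15, numpy 2.4.6, pandas 2.3.3, matplotlib 3.10.9, R 4.3.3, edgeR 4.0.16, DESeq2 1.42.0 and BLAST 2.17.0 were used.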

Additional observations from a re-analysis of the deposited data

How the results depend on the processing

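The sign at the peaks rested on the background. Values are log2 ratios or their differences, with PRE2 before the gypsy2 viewpoint where a pair is given, and no cause was tested. Of the values under other settings (leaving out 1 library apart), 403 kept their direction and side of the threshold, 100 changed sign, 33 lost the threshold and 29 counts or levels moved, and those that answer a comparison or changed sign follow. With the count filter also on peak bins all peaks stood at -0.062 from PRE2 (not past the threshold), WT larval minus embryo at 0.032 and 0.18, and PRE2 minus gypsy2 viewpoint at 0.059. With no count filter all peaks stood at 0.033 and -0.057, quartiles 1 and 2 from PRE2 at 0.062 and 0.046, quartile 1 from the gypsy2 viewpoint at 0.0095, WT larval minus embryo at 0.031 and 0.20, and the viewpoints differed by 0.090.

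With the filter kept, the local background gave -0.012 for gypsy1 minus WT from PRE2, -0.010 for larval gypsy2 minus WT from the gypsy2 viewpoint and 0.077 for the viewpoints. Strata of GATC gave -0.0025 for larval gypsy2 from the gypsy2 viewpoint and 0.090 for the viewpoints, and strata of transcription starts -0.0008 for gypsy1 from PRE2 and 0.091. The share of bins with a count gave 0.014 for quartile 4 minus 1, 0.015 for WT pupal minus larval and 0.056 for larval gypsy2 from PRE2, and -0.015 and -0.022 for gypsy1. Windows of 3 bins gave -0.037 for pupal gypsy2 from PRE2, and 0.0025 for gypsy2 minus WT over the stages, -0.0072 for gypsy1 and -0.055 for larval gypsy2 from the gypsy2 viewpoint. With titled WT as the embryo control, gypsy2 minus WT over the stages was 0.0077 and 0.028.

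The next settings, all without the count filter, were chosen after the data had been seen. The share of bins with a count gave 0.040 and -0.015 for all peaks, 0.045, 0.034 and 0.059 for quartiles 1, 2 and 4 and 0.015 for quartile 4 minus 1 from PRE2, 0.021 for quartile 1 from the gypsy2 viewpoint, -0.015 and -0.022 for gypsy1, 0.021 for WT pupal minus larval and 0.057 for larval gypsy2 from PRE2, and 0.14 for WT larval minus embryo from the gypsy2 viewpoint. The local background gave -0.012 for gypsy1 from PRE2, 0.062 and 0.21 for WT larval minus embryo, -0.0096 for larval gypsy2 from the gypsy2 viewpoint and 0.053 for the viewpoints. Strata of GATC gave 0.19 and 0.11 for all peaks, 0.24, 0.18, 0.090 and 0.22 for the quartiles from PRE2, 0.20, 0.064, 0.071 and 0.047 from the gypsy2 viewpoint, 0.15 for WT larval minus embryo there and 0.082 for the viewpoints. Strata of starts gave -0.0003 for gypsy1 from PRE2, 0.071 and 0.20 for WT larval minus embryo, 0.0004 for gypsy2 minus WT over the stages from the gypsy2 viewpoint and 0.066 for the viewpoints.

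Strata of GATC and CATG gave 0.36 and 0.26 for all peaks, 0.36, 0.35, 0.27 and 0.40 for the quartiles and 0.038 for quartile 4 minus 1 from PRE2, 0.31, 0.22, 0.23 and 0.21 for the quartiles and 0.14 for WT larval minus embryo from the gypsy2 viewpoint, and 0.097 for the viewpoints. With the local background as well, all peaks were at 0.15 and 0.099, the quartiles at 0.16, 0.14, 0.069 and 0.20, then 0.15, 0.060, 0.066 and 0.055, quartile 4 minus 1 at 0.039 and gypsy1 at -0.014 from PRE2, WT larval minus embryo at 0.12 and larval gypsy2 at -0.035 from the gypsy2 viewpoint, and the viewpoints differed by 0.054. The share of bins with a count in that setting was 0.12 and 0.089 for all peaks, 0.10, 0.081, 0.055 and 0.20, then 0.11, 0.064, 0.075 and 0.079 for the quartiles, 0.098 for quartile 4 minus 1, 0.016 for gypsy2 minus WT over the stages, 0.033 for gypsy2 minus titled WT and 0.011 for WT pupal minus larval from PRE2, -0.042 and -0.020 for gypsy1, 0.042 and -0.0049 for larval gypsy2, 0.13 for WT larval minus embryo from the gypsy2 viewpoint and 0.027 for the viewpoints.

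Counts of bins called moved as follows. With no filter beyond 1 count edgeR called 0 for embryo gypsy2 against WT and 0 against titled WT from PRE2, and 1 against WT from the gypsy2 viewpoint. A mean of at least 20 counts gave 0 and 2 for embryo gypsy2 against WT, and trans totals without TMM factors gave 0 against titled WT from PRE2 and 1 against WT from the gypsy2 viewpoint. DESeq2 called 166 bins for larvae and 0 for embryo gypsy2 against titled WT from PRE2, and 65 for embryo gypsy2 against WT, 141 for larvae and 331 for pupae from the gypsy2 viewpoint. It gave no adjusted p for 11248 of 14541, 39936 of 54369, 28345 of 40272, 4382 of 26929 and 27525 of 35429 bins in these.

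The replicate numbers were checked for pairing. The deviations of same-numbered libraries from their group means correlated at -0.21 to 0.17 for gypsy2 with WT or titled WT, and for gypsy1 with WT by column number at -0.24 to -0.17 from PRE2 and 0.21 to 0.35 from the other viewpoint, so the numbers were not taken as pairs. With the replicate block the larval and pupal libraries gave 0.033 and 0.071 for gypsy2 minus WT (exact sign-flip permutation p = 0.844 and 0.562). With it edgeR called 3 bins for gypsy1 from PRE2, 1 for embryo gypsy2 against titled WT from PRE2 and 0 in the 6 other comparisons it was run on, and none of the bins holds a peak. By their titles embryo gypsy2 and WT share no replicate number, and they were not blocked.

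Leaving out 1 library kept all peaks between -0.53 and -0.48 from PRE2, and from the gypsy2 viewpoint between -0.63 and -0.58. Direction changed for results that passed no test, gypsy2 minus WT over the stages (-0.10 to 0.019 and -0.075 to 0.0089), gypsy1 minus WT (-0.024 to 0.037 and -0.015 to 0.076), gypsy2 minus titled WT (-0.12 to 0.031 and -0.15 to 0) and larval gypsy2 minus WT (-0.24 to 0.12 and -0.13 to 0.12). The difference of the viewpoints ran from 0.084 (without pupal WT replicate 3) to 0.13 (without larval gypsy2 replicate 2), and its unadjusted permutation p was above 0.05 in 16 of the 24 fits. Bins called for embryo gypsy2 against WT numbered 2 to 11 and 2 to 26, with 2 from each viewpoint without WT replicate 2, 3 from PRE2 without WT replicate 3, 11 and 26 without gypsy2 replicate 4, and 9 from each without gypsy2 replicate 5. For larvae from PRE2 they numbered 0 to 1 (1 without gypsy2 replicate 3) and for titled WT from PRE2 0 to 2 (0 without titled WT replicate 6, and 2 without titled WT replicate 4 or gypsy2 replicate 4). Depth limited single bins: between 58 and 764 of 1188 peak bins had enough counts to be tested in a comparison.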
